A study of Homo sapiens with 6 samples.

Results

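The clustered histone genes are the protein-coding genes of the HIST1 to HIST4 families, which encode most of the histone protein made during DNA replication. They were taken from the deposited count table as every protein-coding gene whose symbol starts with HIST1H, HIST2H, HIST3H or HIST4H. This gave 71 of 58735 genes in the table, of which 19951 were protein-coding. The HIST1 cluster on chromosome 6 held 55 of them, HIST2 and HIST3 on chromosome 1 held 12 and 3, and HIST4 on chromosome 12 held 1. By encoded protein there were 6 H1 linker histone genes, 17 H2A, 18 H2B, 15 H3 and 15 H4 genes. The choice used symbol and biotype only, although earlier results of these data were known when the gene set was taken up. A further 19 genes with such symbols are annotated as pseudogenes and were not included.

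Most replication-dependent histone mRNAs are made in S phase and are the only animal mRNAs known to end without a poly(A) tail. Their 3′ end is cut just after a conserved stem-loop, which is bound by the stem-loop binding protein SLBP and directs both translation and rapid decay when DNA synthesis stops. Some of these genes also carry a polyadenylation signal further downstream, and polyadenylated forms are known in differentiated, arrested and cancer cells. Selection with oligo(dT), used here, keeps the polyadenylated forms, so the counts below are not a measure of total histone mRNA. Polyadenylated histone RNA below means RNA counted in libraries selected in this way. Whether each counted RNA carried a poly(A) tail was not measured.

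The libraries came from OE33, an established human esophageal adenocarcinoma line labelled as epithelial. In the Ctrl group 3 cultures were left untreated. In the ABS group 3 cultures were held for 20 min at pH 4.0 in medium without supplements that contained a 200 µM mixture of bile salts, then given 6 h in full growth medium. Each group was described as independent biological replicates. The mixture was not specified, and no culture was labelled as receiving acid alone, bile salts alone or the unsupplemented medium alone, so their shares cannot be told apart. The labels also did not say whether Ctrl cells had a medium change. Both groups share 1 line, so nothing here extends to other cells.

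Library totals lay between 22145676 and 25235686 counts. Levels are given as CPM, counts divided by the library size after TMM (trimmed mean of M) scaling. A count of 0 still allows 3 counts, which stood for 0.119 to 0.135 CPM by library size without TMM scaling. Such limits cover counting error only. Epithelial markers summed to between 17255 and 20135 CPM with 0 of 5 at 0. Fibroblast markers summed to between 2.59 and 4.11 CPM, immune markers to between 6.12 and 8.75 CPM with 2 of 4 at 0, and endothelial markers to at most 0.274 CPM. The replicate 3 libraries stood apart from the others. A chi-square statistic per degree of freedom over all genes was 4.77 for Ctrl replicates 1 and 2 and 4.77 for the same ABS replicates. It was 6.74 for replicate 3 of Ctrl with replicate 3 of ABS, against 13.6 to 18.9 for the other pairs of libraries. Those others include Ctrl with ABS among replicates 1 and 2, at 15.8 to 18.2. The distance between Ctrl and ABS was thus smaller in replicate 3. What sets replicate 3 apart was not given in the labels.

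The 3′ end decides whether a histone mRNA can be caught by oligo(dT), so the annotated ends of the 71 genes were read from GENCODE release 29 (GRCh38). A stem-loop was found after the stop codon in 32 genes, 22 to 67 bases downstream of it. The annotation of the others mostly stops before that point. The stem-loop occurred in 6 forms. One gene is shown for each, from 5′ to 3′, because these letters are what distinguishes a histone 3′ end, and capitals mark both arms of the stem.
HIST3H2A: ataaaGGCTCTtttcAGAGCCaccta
HIST4H4: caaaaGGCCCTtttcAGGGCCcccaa
HIST1H2BD: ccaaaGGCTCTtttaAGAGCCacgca
HIST1H4I: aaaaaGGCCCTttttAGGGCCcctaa
HIST1H3E: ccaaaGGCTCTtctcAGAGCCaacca
HIST1H2AG: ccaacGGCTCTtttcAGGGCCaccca
The 16 bases from arm to arm lie at chr1:228457369-228457384 on the minus strand in *HIST3H2A* and at chr12:14770724-14770739 on the minus strand in *HIST4H4*. The form shown for *HIST3H2A* was found in 17 genes of classes H2A, H2B and H3. The form of *HIST4H4* was found in 5 genes and that of *HIST1H4I* in 3, all of class H4. The form of *HIST1H2BD* was found in 5 H2B and H3 genes, and those of *HIST1H3E* and *HIST1H2AG* in 1 gene each.

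Gene models differed in how far past this element they reach, which sets which reads could be counted. The model extended more than 100 bases past the stem-loop in 23 genes, by up to 1917 bases, and 15 of these had the polyadenylation signal AATAAA within 40 bases of an annotated end. In 9 genes the model ended 6 to 86 bases past the stem-loop, and 4 of these had the signal. Models that end at most 100 bases past it are called models that end at the stem-loop. In 33 genes the model held coding bases only, so reads from an untranslated or extended 3′ end could not have been assigned to them. The other 6 models had further bases but no stem-loop. For this reason levels are given both as CPM and as CPM per kilobase of the annotated exon length, and only the second is used to compare genes with each other.

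Promoters are shown for 3 genes that the values below turn on, *HIST1H2BK* and *HIST3H2A* as the highest in Ctrl and *HIST4H4* as the gene with the smallest p between groups. The sequences are from RefSeq (GRCh38.p14), run from 250 bases before to 50 after the start, 5′ to 3′ on the gene's strand. Capitals mark 3 motifs, searched on both strands, where matches may overlap. The first is the octamer ATTTGCAT, a site of the transcription factor POU2F1. The second is the TATA box, searched as TATAAA. The last is CCAAT, the site of the factor NF-Y. They lie on the minus strand at chr6:27146806-27147105, chr1:228457824-228458123 and chr12:14771082-14771381.
HIST1H2BK: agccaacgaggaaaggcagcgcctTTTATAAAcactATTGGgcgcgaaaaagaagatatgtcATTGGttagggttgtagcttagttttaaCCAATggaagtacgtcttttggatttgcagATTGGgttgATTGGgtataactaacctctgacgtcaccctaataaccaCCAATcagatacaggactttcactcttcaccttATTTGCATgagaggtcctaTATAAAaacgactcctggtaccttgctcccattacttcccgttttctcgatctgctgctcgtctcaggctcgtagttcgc
HIST3H2A: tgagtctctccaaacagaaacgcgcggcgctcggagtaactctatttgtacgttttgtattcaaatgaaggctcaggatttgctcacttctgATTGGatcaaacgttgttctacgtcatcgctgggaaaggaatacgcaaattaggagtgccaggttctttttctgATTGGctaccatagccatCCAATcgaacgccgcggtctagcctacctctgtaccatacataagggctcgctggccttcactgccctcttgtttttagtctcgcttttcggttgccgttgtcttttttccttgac
HIST4H4: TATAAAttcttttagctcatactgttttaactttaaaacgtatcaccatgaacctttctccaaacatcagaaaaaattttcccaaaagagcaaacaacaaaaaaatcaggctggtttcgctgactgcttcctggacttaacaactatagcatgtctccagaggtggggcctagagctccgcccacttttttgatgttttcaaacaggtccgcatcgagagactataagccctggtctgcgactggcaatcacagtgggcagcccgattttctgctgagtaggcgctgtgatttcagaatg
The *HIST1H2BK* promoter held all 3 motifs, that of *HIST3H2A* held CCAAT alone and that of *HIST4H4* TATAAA alone. The TATAAA of *HIST4H4* opens the printed sequence, 250 bases before the start, and none lies near the start. Of the 71 genes, 61 had a RefSeq promoter. The octamer was present in 20 of these (32.8%), against 1.77% of 35116 RefSeq promoters of the same length. It was found in 11 of 16 H2A and 9 of 13 H2B promoters and in 0 of 6 H1, 0 of 13 H3 and 0 of 13 H4 promoters. Some H2A and H2B promoters overlap, as do those of *HIST2H2AC* and *HIST2H2BE*, so the same octamer was counted for both genes. TATAAA was present in 41 (67.2%), against 11.5% of all promoters. CCAAT was present in 51 (83.6%), against 34.6%, and in every H1, H2A, H2B and H3 promoter but 3 of 13 H4 promoters. These are matches of letters at any position, and binding was not measured.

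In untreated OE33 cells the polyadenylated histone signal was low. Its largest sources were *HIST1H2BK* and *HIST3H2A*, genes for an H2B and an H2A. All 71 genes together gave 76.0, 74.0 and 83.6 CPM in Ctrl replicates 1 to 3. Per kilobase their sum was 105 ± 4.35 CPM (SD, n = 3). *HIST1H2BK* alone held 38.8% ± 4.12 of that sum, and together with *HIST3H2A* it held 57.3% ± 4.35. Of the summed CPM not divided by length both genes together held 42.2% ± 3.82. Only 14 genes reached a mean of 1 CPM over the 6 libraries and 3 reached 5 CPM. In 9 genes no read was counted in any library, and these came from every class.

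**Figure D1:**
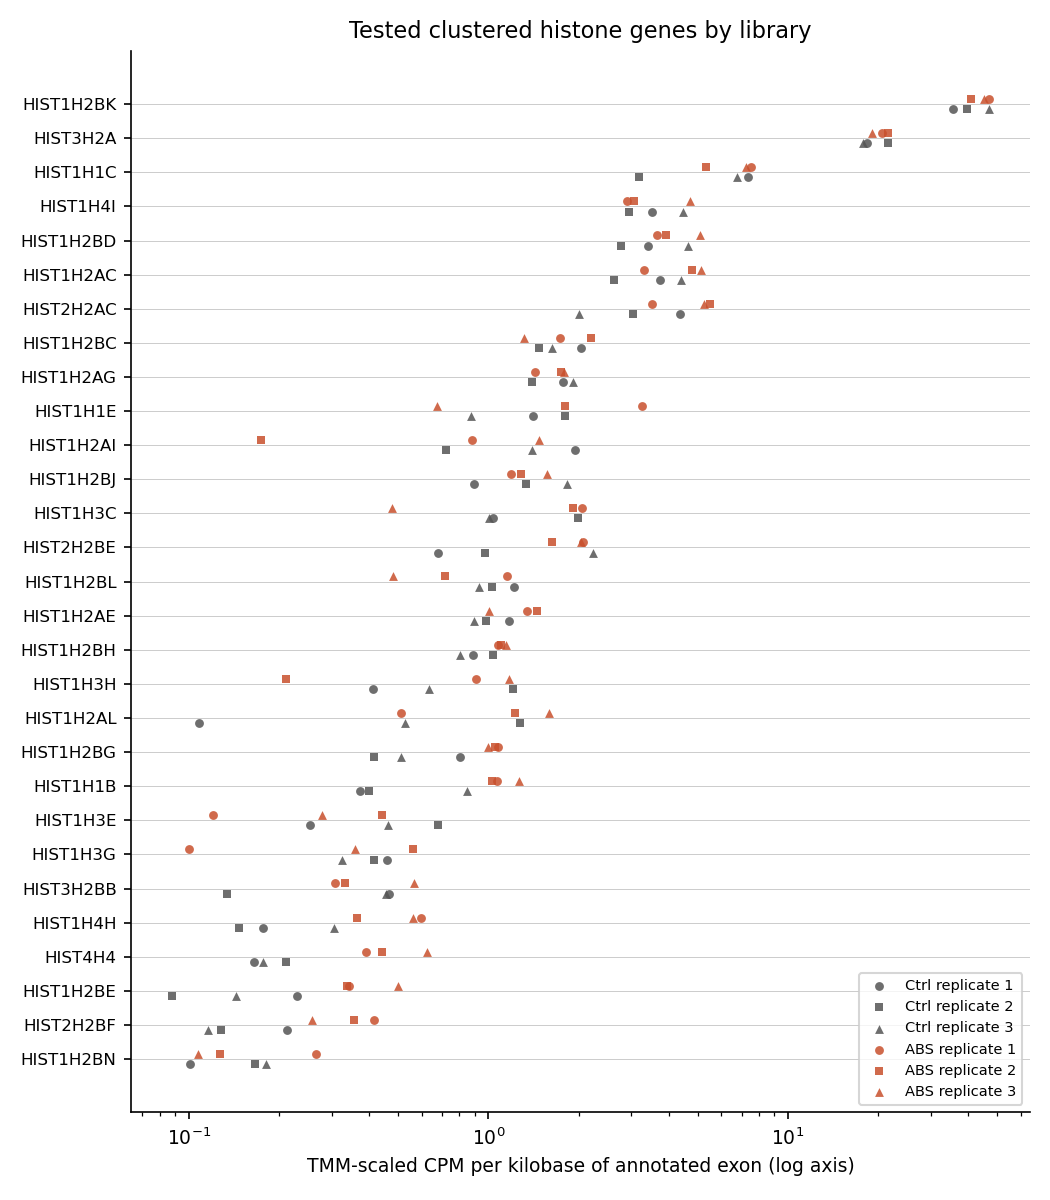
Level of each of the 29 tested clustered histone genes in each of the 6 libraries, as TMM-scaled CPM per kilobase of annotated exon on a log axis. Grey points are Ctrl, red points ABS, and the shape gives the replicate. *HIST1H2BK* (mean 40.6 in Ctrl) and *HIST3H2A* (mean 19.3) lie apart from the other genes, which start at 5.76 for *HIST1H1C*.

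Class H2B held 50.8% ± 4.31 of the summed Ctrl level per kilobase and class H2A 30.2% ± 2.64. These are the partners of 1 dimer of the nucleosome. Class H1, the linker histones, held 7.86% ± 1.37, H4 5.73% ± 0.679 and H3 5.35% ± 1.37, and the ranges of these last classes overlapped. By position, HIST1 held 75.8% ± 2.58, HIST3 18.9% ± 2.35, HIST2 5.18% ± 0.587 and HIST4 0.177% ± 0.0282. The shares by class depended on the length scale. With CPM not divided by length, H4 stood above H1, at 8.45% and 7.02%, and H2A and H2B were nearly level at 38.7% and 39.5%, where *HIST3H2A* has an annotated length of 895 bases and *HIST1H2BK* of 381.

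**Figure D2:**
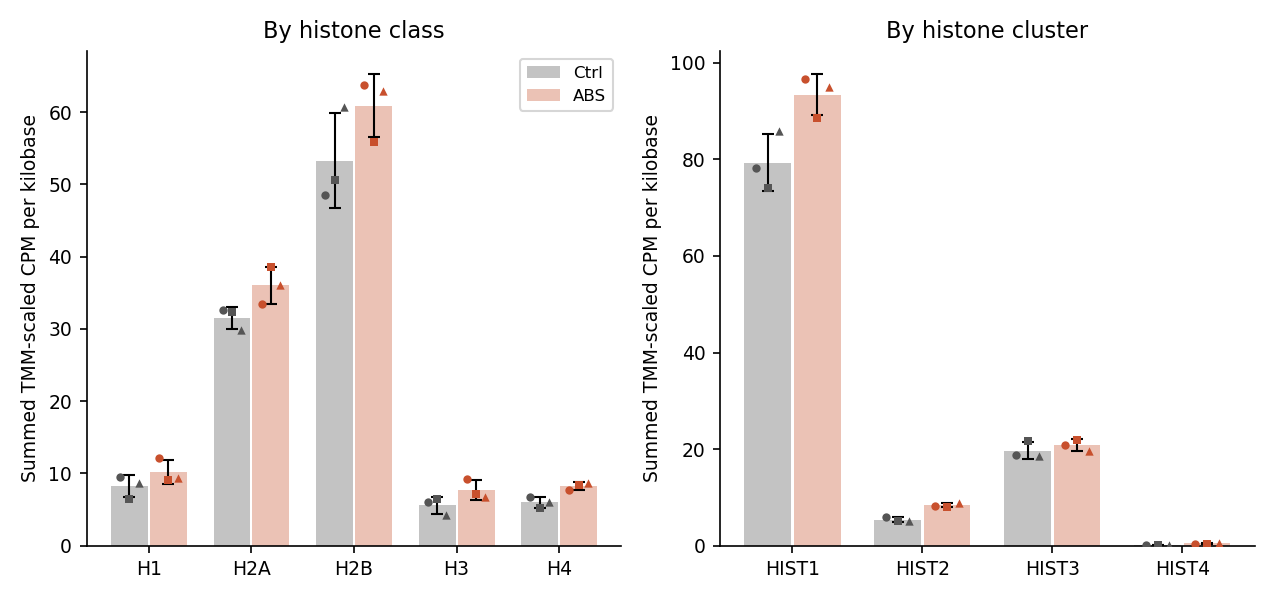
Summed TMM-scaled CPM per kilobase by histone class (left) and by gene cluster (right) in Ctrl (grey) and ABS (red). Bars are means from 0, error bars are SD over 3 libraries and points are single libraries. H2B and H2A, and the HIST1 cluster, hold most of the signal in both groups. The ABS mean is above the Ctrl mean in every class and cluster, and the groups overlap only in classes H1 and H2B and in HIST3.

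*HIST1H2BK* (ENSG00000197903, chr6:27146418-27146798, minus strand) had 13.5, 15.1 and 17.8 CPM in Ctrl and 17.9, 15.5 and 17.2 CPM in ABS. The groups overlapped. Its model is 1 exon of coding bases, and 28.4% of its 100-base windows also occur in *H2BFS*, so reads could be split with that copy. *HIST3H2A* (ENSG00000181218, chr1:228456979-228457873, minus strand) had 16.5, 19.3 and 15.99 CPM in Ctrl and 18.4, 19.4 and 17.0 CPM in ABS, again with overlap. None of its windows were shared with another gene, and its model runs 390 bases past the stem-loop.

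The remaining genes of the 12 highest per kilobase lay well below these. Among the H2A genes, *HIST1H2AC* had 6.24, 4.37 and 7.36 CPM in Ctrl and 5.52, 7.95 and 8.55 in ABS. *HIST1H2AG* had 3.99, 3.14 and 4.30 CPM in Ctrl and 3.22, 3.93 and 4.04 in ABS. *HIST2H2AC* had 1.70, 1.18 and 0.785 CPM in Ctrl and 1.37, 2.14 and 2.04 in ABS. In all 3 of these genes the groups overlapped. *HIST1H2AI* had 0.977, 0.364 and 0.703 CPM in Ctrl and 0.443, 0.0874 and 0.745 in ABS, where the lowest value stands for 2 counts. Among the H2B genes, *HIST1H2BD* had 2.97, 2.41 and 4.05 CPM in Ctrl and 3.18, 3.41 and 4.43 in ABS. *HIST1H2BC* had 1.70, 1.23 and 1.36 CPM in Ctrl and 1.45, 1.83 and 1.10 in ABS. These H2B genes also overlapped between groups, as did *HIST1H2BJ* with 0.849, 1.27 and 1.74 CPM in Ctrl and 1.13, 1.22 and 1.49 in ABS. For the linker histones, *HIST1H1C* (H1.2) had 4.71, 2.05 and 4.34 CPM in Ctrl and 4.84, 3.41 and 4.67 in ABS. *HIST1H1E* (H1.4) had 1.06, 1.36 and 0.661 CPM in Ctrl and 2.46, 1.35 and 0.510 in ABS, so ABS held both its highest and its lowest library. The core histone gene *HIST1H4I*, which encodes H4, had 4.54, 3.82 and 5.79 CPM in Ctrl and 3.75, 3.98 and 6.12 in ABS, and replicate 3 was the highest in both groups.

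Below *HIST1H2BK* and *HIST3H2A* the Ctrl levels per kilobase form a gradual series. They were 5.76 ± 2.25 for *HIST1H1C*, 3.64 ± 0.768 for *HIST1H4I*, 3.61 ± 0.957 for *HIST1H2BD*, 3.59 ± 0.906 for *HIST1H2AC* and 3.13 ± 1.17 for *HIST2H2AC*. No neighbours among these 5 differed by more than the larger SD. *HIST1H2BC* and *HIST1H2AG* followed at 1.71 ± 0.291 and 1.69 ± 0.267, and *HIST1H1E*, *HIST1H2AI* and *HIST1H2BJ* at 1.36 ± 0.468, 1.35 ± 0.611 and 1.35 ± 0.467, which again did not differ beyond their spread. All remaining genes were below these.

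The highest genes belonged to the extended and the coding-only models. The highest level in Ctrl was 3.61 CPM per kilobase among models that end at the stem-loop and 1.36 among those without one. Genes annotated with coding bases only had a median of 0.240 CPM per kilobase in Ctrl and those extending past the stem-loop 0.400, while the single highest gene belonged to the first set. Extended models held 34.6% ± 1.04 of the summed level per kilobase and 59.5% ± 0.885 of the summed CPM. Coding-only models held 55.1% ± 0.362 per kilobase, most of it *HIST1H2BK*. The 25 genes with a model over 1000 bases or with an intron held 21.1% ± 2.64 per kilobase.

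H2A and H2B genes often lie head to head and share a promoter region. Pairs of divergent starts within 1000 bases numbered 12, of which 11 joined an H2A with an H2B gene and 1 an H3 with an H2B gene. The members of a pair were not at like levels where the signal was highest. *HIST1H2BK* had 40.6 CPM per kilobase in Ctrl and its partner *HIST1H2AH*, 331 bases away, 0.151, from 1082 and 4 counts over the 3 libraries. *HIST3H2A* had 19.3 and its partner *HIST3H2BB*, 234 bases away, 0.352, from 1200 and 59 counts. The same gene was higher in 6 of 6 libraries in both pairs. *HIST1H2AC* and *HIST1H2BC* had 3.59 and 1.71, again with the same order in 6 of 6 libraries. *HIST2H2AC* and *HIST2H2BE* had 3.13 and 1.30 with the same order in 5 of 6, and *HIST1H2AG* and *HIST1H2BJ* 1.69 and 1.35 with the same order in 6 of 6. The Ctrl counts of *HIST2H2AC* and *HIST2H2BE* were 85 and 201, so their order was reversed without division by length. *HIST1H2AI* and *HIST1H2BL* kept 1 order in only 3 of 6. The pairs compare annotated models, and *HIST1H2AH* is annotated with coding bases only, as is *HIST1H2BK*. Pair partners with a mean under 1 CPM are named for their position, which was chosen after their values were seen.

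**Figure D3:**
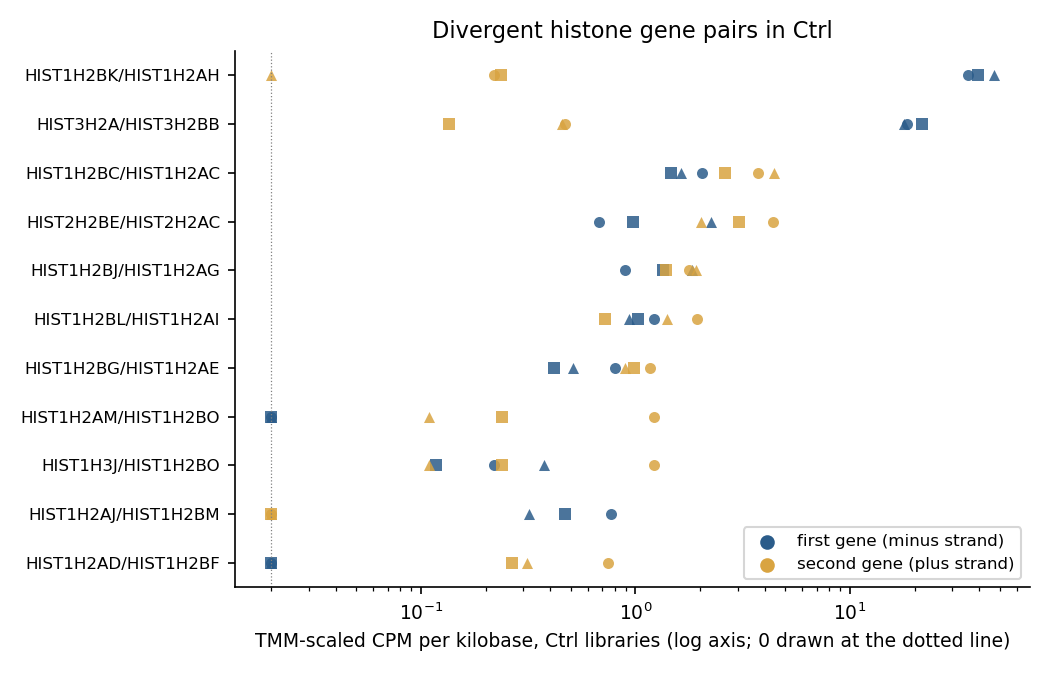
Ctrl levels of the genes of 11 divergent histone pairs, as TMM-scaled CPM per kilobase on a log axis, with 1 point per library and the shape giving the replicate; values of 0 are drawn at the dotted line. The pair with both genes at 0 in all libraries is left out. The genes of the top pairs, *HIST1H2BK* with *HIST1H2AH* and *HIST3H2A* with *HIST3H2BB*, lie far apart. In the other pairs with both genes above 0 in Ctrl, the means differ 1.25-fold to 2.41-fold.

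The question of the contrast is how polyadenylated histone RNA stood 6 h after the acid and bile salt exposure. Summed CPM was 76.0, 74.0 and 83.6 in Ctrl and 90.2, 88.8 and 94.0 in ABS, so the lowest ABS library lay above the highest Ctrl library. The means were 77.9 ± 5.07 and 91.0 ± 2.68 CPM (SD, n = 3 each), a ratio of 1.17. Per kilobase the means were 105 ± 4.35 and 123 ± 3.71, a ratio of 1.18, which was 1.20 within replicates 1 and 2. *HIST1H2BK* and *HIST3H2A* together held 42.2% ± 3.82 of the summed CPM in Ctrl and 38.6% ± 1.94 in ABS, with overlap. Without them the sums were 46.0, 39.6 and 49.8 CPM in Ctrl and 53.9, 53.9 and 59.7 in ABS, a ratio of 1.24. The counts behind the sums were 1813 ± 199 in Ctrl and 2222 ± 182 in ABS. In bulk RNA a change in the share of cells that express a gene and a change in its RNA per cell cannot be told apart.

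**Figure D4:**
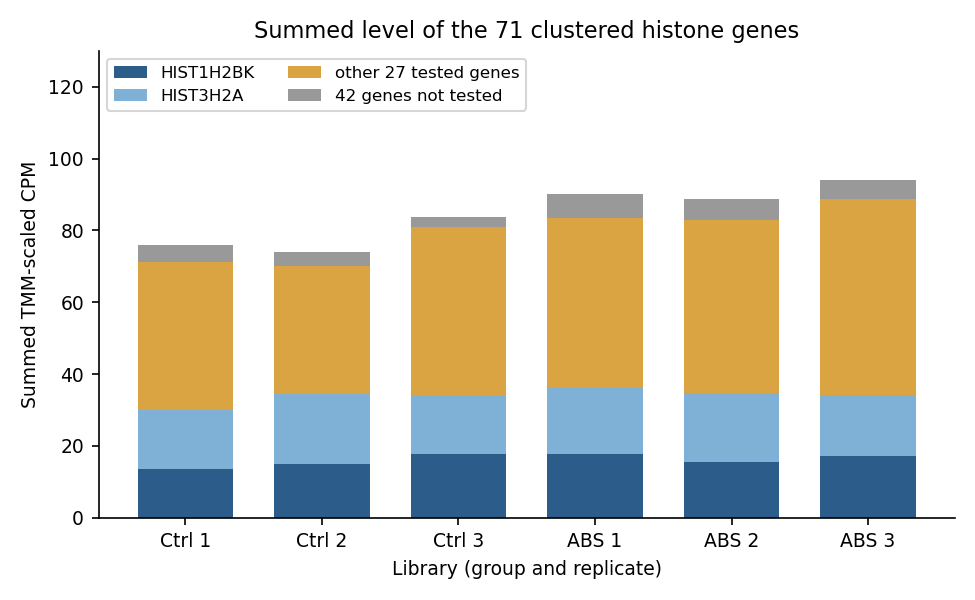
Summed TMM-scaled CPM of all 71 clustered histone genes in each library, stacked from 0 by *HIST1H2BK*, *HIST3H2A*, the other 27 tested genes and the 42 genes not tested. The Ctrl libraries reach 74.0 to 83.6 CPM and the ABS libraries 88.8 to 94.0 CPM, and the lower 2 layers are of like height in both groups.

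By class, H4 had summed levels per kilobase of 6.70, 5.24 and 6.05 CPM in Ctrl and 7.65, 8.36 and 8.70 in ABS, without overlap and with a ratio of means of 1.37. H3 had 5.99, 6.52 and 4.18 in Ctrl and 9.22, 7.12 and 6.77 in ABS, also without overlap, with a ratio of 1.38. The H3 ratio was 1.06, with overlap, when CPM was not divided by length. On that scale the H4 ratio was 1.29, and the groups barely separated. The highest Ctrl library had 7.56 CPM of H4 and the lowest ABS library 7.58. H2A had 32.6, 32.3 and 29.8 in Ctrl and 33.4, 38.6 and 36.1 in ABS, narrowly without overlap, with a ratio of 1.14. H2B had 48.5, 50.6 and 60.8 in Ctrl and 63.8, 55.9 and 63.0 in ABS, with a ratio of 1.14, and H1 9.45, 6.51 and 8.74 against 12.2, 9.06 and 9.39, with a ratio of 1.24. The groups of the last pair of classes overlapped. By position, the HIST2 genes had 5.97, 5.20 and 5.05 in Ctrl and 8.28, 7.97 and 8.79 in ABS, a ratio of 1.54. HIST3 stood at 19.7 and 20.8 on average, with overlap. These sums are descriptions without a test.

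Gene by gene, no clustered histone gene passed the test. A total of 13768 genes passed the low-count filter and were tested with the quasi-likelihood test of edgeR, with Benjamini-Hochberg adjustment over all of them and a threshold of 0.05. Of the 71 histone genes 29 were tested and 0 passed, against a background of 0.436% of all tested genes, or 0.37% counting higher genes alone. DESeq2 called 0 of them, against 1.81% of all genes it tested, and limma-voom 0, against 0.45%. At an unadjusted p under 0.05, 5 of the 29 (17.2%) were higher in ABS, against 5.61% of all tested genes. Lower were 0 of the 29, against 4.14%, and 9.75% of all genes had such a p in either direction. The 3 ABS libraries lay above the 3 Ctrl libraries in 7 of the 29 (24.1%), against 7.55% of all tested genes. They lay below in 0 of the 29, against 6.97%. The log2 fold changes ran from -0.73 to 1.39 with a median of 0.22, and the median of all tested genes was 0.00 within rounding. These genes were sparse, with a median of 0.963 CPM in Ctrl against 22.1 for all tested genes, and their SE reached 0.75. The filter level was 0.423 CPM by library size without TMM scaling. Of the 29, 6 met it in all libraries of ABS but not in all of Ctrl, and 4 the reverse. The counts and the median over tested genes are therefore shaped by the filter and are given as description only. Among all 71 genes, 43 had a higher mean in ABS (69.4% of those with a read), 19 a lower mean and 9 had no reads. Of the 24957 genes of the table with a read, 50.1% had a higher mean and 49.9% a lower mean in ABS.

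**Figure D5:**
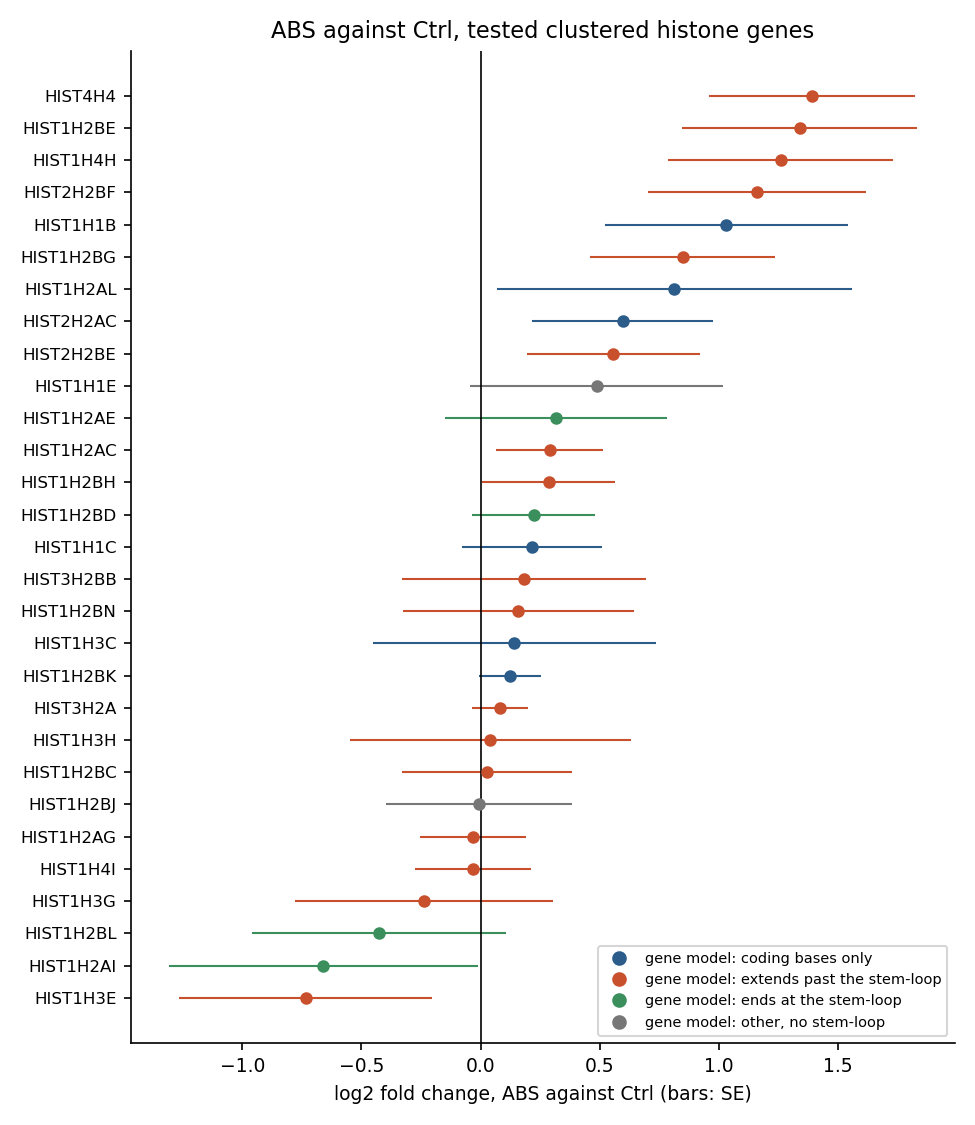
Log2 fold change of ABS against Ctrl for the 29 tested clustered histone genes, with bars for the SE and colours for the type of gene model. Values to the right of 0 are higher in ABS. The genes furthest right are *HIST4H4*, *HIST1H2BE*, *HIST1H4H* and *HIST2H2BF*, and none passed the adjusted threshold. All of them extend past the stem-loop, as do 17 of the 29 tested genes. The median was 0.18 for these 17 and 0.41 for the 6 with coding bases only. It was -0.10 for the 4 that end at the stem-loop. The abundant *HIST1H2BK* and *HIST3H2A* lie close to 0.

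*HIST4H4* (ENSG00000197837, chr12:14767999-14771131, minus strand), the lone H4 gene of the HIST4 locus, had the smallest p. It had 0.425, 0.546 and 0.455 CPM in Ctrl and 1.01, 1.14 and 1.61 in ABS, from 10, 12 and 11 counts and 25, 26 and 41 counts. All 3 ABS libraries were above all 3 Ctrl libraries. The log2 fold change of 1.39 (SE 0.43) had an unadjusted p of 0.00738 and an edgeR adjusted p of 0.234. Over the alternative analyses the adjusted p ran from 0.137 to 0.701. Its model runs 1510 bases past the stem-loop printed above.

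The other genes with an unadjusted p under 0.05 lay at similar low levels. *HIST1H2BE* had 0.595, 0.227 and 0.372 CPM in Ctrl and 0.887, 0.874 and 1.29 in ABS, a log2 fold change of 1.34 (SE 0.49, edgeR adjusted p 0.349). *HIST1H4H* had 0.382, 0.318 and 0.661 CPM in Ctrl and 1.29, 0.786 and 1.22 in ABS, a log2 fold change of 1.26 (SE 0.47, edgeR adjusted p 0.363). *HIST2H2BF* had 0.680, 0.409 and 0.372 CPM in Ctrl and 1.33, 1.14 and 0.823 in ABS, a log2 fold change of 1.16 (SE 0.46, edgeR adjusted p 0.406). Each of these genes, which encode H2B, H4 and H2B, had its lowest ABS library above its highest Ctrl library. *HIST1H2BG* had 1.23, 0.637 and 0.785 CPM in Ctrl and 1.65, 1.62 and 1.53 in ABS, a log2 fold change of 0.85 (SE 0.39, edgeR adjusted p 0.510). *HIST1H2BE* overlaps *AL353759.1* on the other strand and shares 25.6% of its windows with that gene and *HIST1H2BN*, and *HIST2H2BF* overlaps *FCGR1A* on the other strand. Since the strand setting of the counting was not given, reads of such partners cannot be told apart.

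A pair of genes had groups that did not overlap with a larger p. *HIST1H1B* (H1.5) had 0.255, 0.273 and 0.579 CPM in Ctrl and 0.726, 0.699 and 0.862 in ABS, a log2 fold change of 1.03 (SE 0.51, edgeR adjusted p 0.555). *HIST1H2BH* had 1.83, 2.14 and 1.65 CPM in Ctrl and 2.22, 2.27 and 2.35 in ABS, a log2 fold change of 0.29 (SE 0.28, edgeR adjusted p 0.817). *HIST4H4*, *HIST1H2BE*, *HIST1H4H*, *HIST2H2BF* and *HIST1H1B* were among the 6 genes at the filter level in all ABS but not all Ctrl libraries. For *HIST4H4* this came from Ctrl replicate 1, whose 10 counts fell just short before TMM scaling. *HIST1H2BG* and *HIST1H2BH* reached it in all 6.

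Differences were small for the abundant genes. The log2 fold change was 0.12 (SE 0.13) for *HIST1H2BK* and 0.08 (SE 0.12) for *HIST3H2A*, with edgeR adjusted p of 0.830 and 0.895. It was 0.29 (SE 0.22, edgeR adjusted p 0.751) for *HIST1H2AC*, larger than its SE but not past the threshold, and 0.22 (SE 0.29) for *HIST1H1C*, and that of *HIST1H1C* was -0.07 without Ctrl replicate 2. *HIST1H4I* and *HIST1H2AG* both stood at -0.03. The lowest value was that of *HIST1H3E*, an H3 gene, with 0.680, 1.82 and 1.24 CPM in Ctrl and 0.322, 1.18 and 0.745 in ABS, a log2 fold change of -0.73 (SE 0.53, edgeR adjusted p 0.720).

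*HIST2H2BE*, which encodes an H2B, had a value that rested on 1 library. It had 1.49, 2.14 and 4.92 CPM in Ctrl and 4.55, 3.58 and 4.47 in ABS. Ctrl replicate 3 was the highest of all 6 and the other Ctrl libraries the lowest. The log2 fold change was 0.56 (SE 0.36, edgeR adjusted p 0.682). Without Ctrl replicate 3 it was 1.21 with an edgeR adjusted p of 0.0442, where 3.1% of all tested genes passed. Within replicates 1 and 2 it was 1.17 with an edgeR adjusted p of 0.0161, where 13.2% passed. Over all alternatives its adjusted p ran from 0.0161 to 0.983.

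The 42 untested genes summed to 4.76, 3.82 and 2.52 CPM in Ctrl and 6.73, 5.90 and 5.33 in ABS, from a mean of 85.7 and 146 counts. The groups did not overlap, and the ratio of means was 1.62, against 1.05 for the sum of all 11189 untested genes with a read. Between 48 and 49 of all 71 genes had a count in each Ctrl library and between 52 and 60 in each ABS library, while over the whole table the genes detected overlapped between groups, at 18211 to 19362 and 18127 to 19927. In 7 genes, 11.3% of those with a read, all reads were in ABS libraries, a share near the 11.1% of all genes with a read. In 0 genes all were in Ctrl libraries, against 9.29%. Untested genes whose groups did not overlap, named after their values were seen, were *HIST1H4F* with 5, 0 and 0 counts in Ctrl and 6, 12 and 8 in ABS, *HIST1H2AB* with 0 in Ctrl and 1, 2 and 2 in ABS, and *HIST1H3J* with 4, 2 and 7 in Ctrl and 2, 1 and 2 in ABS. The counts of *HIST1H3J* tie at 2, and its groups separate only after scaling by library size. Most of these values are near or under the limit of 3 counts. Near-identical copies are uncertain, because how reads that map to several places were counted is not given in the sources used here. In 7 genes every 100-base window also occurs in another gene, and 25 share at least 1 window. *HIST2H2AA3* and *HIST2H2AA4* share 100% and 96.8% of their windows with other genes and *HIST2H4A* and *HIST2H4B* 94.9% and 97.1%, and none had more than 6 counts in a library.

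In polyadenylated RNA, replication-independent variants were far more abundant than the clustered genes. They are encoded outside the clusters and in large part from polyadenylated mRNAs. The comparison does not cover clustered histone mRNAs without a poly(A) tail. *H2AFX* is known to make both a stem-loop and a polyadenylated form. Per kilobase in Ctrl, *H2AFZ* (H2A.Z) stood at 174 ± 13.8 CPM, *H1F0* (H1.0) at 137 ± 12.5, *H2AFX* (H2A.X) at 116 ± 3.79, *H3F3A* and *H3F3B* (both H3.3) at 106 ± 8.87 and 99.3 ± 4.82, and *H1FX* at 82.2 ± 8.51. Summed by class, variants exceeded clustered genes 27.5-fold for H1, 11.7-fold for H2A and 40.7-fold for H3 in Ctrl, as means of 3 libraries. In ABS the same ratios were 19.7, 9.98 and 29.2, and every ABS library lay below every Ctrl library in all 3 classes. These ratios depend on the length scale. For H3 the variants stood at 220 and 222 CPM per kilobase in Ctrl and ABS. The clustered H3 genes had an ABS to Ctrl ratio of 1.06, with overlap, when CPM was not divided by length. Of 12 variants 11 were tested, 0 passed, and their median log2 fold change was -0.06. At an unadjusted p under 0.05, 2 of the 11 were lower and 0 higher, against 4.14% and 5.61% of all tested genes. These were *H1F0* and *H2AFJ*, with log2 fold changes of -0.21 and -0.20 and edgeR adjusted p of 0.423 and 0.490.

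The factors that make and process histone mRNA were measured at higher depth, and 0 of 23 passed the test. *SLBP* had 154, 152 and 157 CPM in Ctrl and 137, 140 and 140 in ABS, without overlap. Its log2 fold change was -0.15 (SE 0.07, edgeR adjusted p 0.478). *NPAT* and *CASP8AP2*, which are needed for histone gene transcription at the histone locus body, had log2 fold changes of 0.08 (SE 0.11) and -0.06 (SE 0.14). *NFYA*, a subunit of the CCAAT factor NF-Y, had 26.9, 29.4 and 38.9 CPM in Ctrl and 38.9, 38.4 and 41.0 in ABS, a log2 fold change of 0.31 (SE 0.13, edgeR adjusted p 0.417). The list's median was 0.00 within rounding. At an unadjusted p under 0.05, 1 of 23 was higher and 1 lower, against 5.61% and 4.14% of all tested genes. The ABS libraries lay above the Ctrl libraries in 2 of 23 and below in 2, against 7.55% and 6.97%.

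Among 26 S phase genes and cyclins 0 passed, 7 had a positive log2 fold change and the median was -0.07. At an unadjusted p under 0.05, 0 of 26 were higher and 5 of 26 lower, against 5.61% and 4.14% of all tested genes. In 7 of 26 the ABS libraries lay below the Ctrl libraries, against 6.97% of all tested genes. Both shares of lower genes were above those over all tested genes. *CDT1*, which licenses replication origins, had 118, 111 and 98.5 CPM in Ctrl and 89.8, 91.5 and 94.1 in ABS, a log2 fold change of -0.25 (SE 0.08, edgeR adjusted p 0.258). The transcription factor gene *E2F1* stood at -0.22 (SE 0.07, edgeR adjusted p 0.262), *GINS1* at -0.21 (SE 0.08, adjusted p 0.353) and *E2F2* at -0.30 (SE 0.14, adjusted p 0.507). Whether the S phase genes bear on the histone values was not tested.

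Of 17 histone chaperone and deposition genes 0 passed, and the median was -0.04. *ASF1A*, a chaperone of H3 and H4, had a log2 fold change of 0.25 (SE 0.10, edgeR adjusted p 0.457) with ABS above Ctrl in every library. *DAXX*, a chaperone of H3.3, had -0.15 (SE 0.08, edgeR adjusted p 0.575) with ABS below. Of the 17, 1 was so separated above and 1 below, against 7.55% and 6.97% of all tested genes. Of 15 genes of the cleavage and polyadenylation machinery 0 passed, with a median of 0.01. *CSTF3* had 31.1, 30.1 and 28.3 CPM in Ctrl and 22.8, 25.5 and 25.3 in ABS, a log2 fold change of -0.28 (SE 0.10, edgeR adjusted p 0.304). *PCF11* had 34.5, 37.0 and 36.5 CPM in Ctrl and 43.4, 44.4 and 40.4 in ABS, a log2 fold change of 0.25 (SE 0.09, edgeR adjusted p 0.310). DESeq2 and limma-voom called 0 genes in each of the 5 lists.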

How the data were processed

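The authors' deposited table holds whole-number counts per gene in 1 column for each of 6 libraries. Per the submitters' processing notes, HISAT2 2.0.5 and featureCounts 1.5.0-p3 were used with GRCh38. Which annotation release was used, whether strand was counted and how multi-mapping reads were handled are not given in the sources used here. All 58735 gene IDs had identical coordinates in GENCODE release 29, which supplied exon models, and transcript sequences for stem-loops (16 bases, up to 2 mismatches). Promoters are RefSeq's (GRCh38.p14), matched by symbol or gene ID.

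From the counts, edgeR 4.0.16 (R 4.3.3) filtered with filterByExpr (minimum count 10, minimum total 15), scaled by TMM and ran the quasi-likelihood test with group as the only term, with Benjamini-Hochberg adjustment over all tested genes. The biological coefficient of variation was 11.3%. Each SE is the log2 fold change divided by the square root of F. DESeq2 1.42.0 and limma 3.58.1 (voom) served as alternatives. The procedure was tested on simulated data. Histone genes with a mean of at least 1 CPM could be named, with every library's value for the 12 highest per kilobase in Ctrl and for tested genes with an unadjusted p under 0.05 or groups that did not overlap. Up to 4 genes of each list (smallest adjusted p), SLBP, NPAT, CASP8AP2 and 6 variants were named too. The gene set and the lists were chosen with earlier results of these data known.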

Additional observations from a re-analysis of the deposited data

How the results depend on the processing

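Over 14 alternatives of the gene test, 12 of them planned, 0 histone genes passed in 12. *HIST2H2BE* passed within replicates 1 and 2 (1 gene) and without Ctrl replicate 3 (0 to 1 gene over the leave-one-out fits). The median log2 fold change of tested histone genes stayed between 0.20 and 0.30, and the ratio of summed levels between 1.16 and 1.20. The log2 fold change of *HIST1H1C*, 0.22, lay between -0.0709 and 0.426 when 1 library was left out, the lowest being without Ctrl replicate 2. The number of all genes called moved more, from 60 to 35 with library size alone, 233 with DESeq2, 409 without a filter, 1813 within replicates 1 and 2, 465 when replicate 3 had its own term, and 12 to 438 with 1 library left out. The cause was not tested. With the replicate number as a block 350 genes and 0 histone genes passed, and the histone median was 0.25. Deviations of same-numbered libraries correlated at 0.04, 0.03 and 0.17, so the numbers were not taken as pairs, although the replicate 3 libraries of both groups resembled each other. With CPM not divided by length, shares in Ctrl were 38.7% for H2A, 39.5% for H2B, 8.45% for H4, 69.6% for HIST1, 6.41% for HIST2, 23.4% for HIST3, 0.613% for HIST4 and 43.0% for long or spliced models. Depth limits most of these genes, and under 3 counts no difference was detectable.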

Other observations

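Outside the protein-coding set, 19 genes carry HIST1 to HIST4 symbols and are annotated as pseudogenes, and 11 of them had no read in any library. The transcribed pseudogene *HIST2H2BC* had 107, 135 and 140 counts in Ctrl and 126, 195 and 119 in ABS, with overlap. *HIST2H2BD* had 13, 16 and 14 counts in Ctrl and 15, 16 and 16 in ABS. The remaining 6 had at most 8 counts in a library.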
